A study of Mus musculus with 208 samples.

Results

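The genes described here are those of glucose uptake, glycolysis, glycogen turnover and the control of pyruvate, 39 genes named by symbol, in the left ventricle (LV) of mouse strains that did or did not receive isoproterenol (ISO). All probes that the array annotation gives a member's symbol were taken, which left 35 measured members of 16593 genes with a symbol. These members had 50 probes, and 10 of them had more than 1 probe. No probe carried the symbol of Gpi1, Pfkfb1, Eno1 or Ldhb, so the glucose phosphate isomerase, the common enolase and the heart chain of lactate dehydrogenase were not measured. A probe annotated to Eno1b, a near-identical copy of Eno1, is not counted as a member. It was at 4.97 in ISO hearts and 4.91 in control hearts and did not pass the test (adjusted p-value = 0.496).

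The Hybrid Mouse Diversity Panel (HMDP) joins classical inbred lines with recombinant inbred (RI) lines bred from 2 parental lines each. Female mice of 93 strains received ISO, a non-selective agonist of the β-adrenergic receptors, from an implanted pump for 3 weeks, and females of 93 strains were untreated. The labels give the dose as 30 μg/g/day and the study's design text as 20 μg/g/day, treatment began at 8 to 9 weeks of age, and the labels of all samples state 10 weeks. Both conditions were available in 87 of the 99 strains, and these strains are the replicates of every comparison below. Each array held LV RNA pooled from mice of a strain, so the spread between mice of the same strain was not seen, and control mice carried no pump with vehicle. Levels are given as log2 of the normalized intensity of a probe. A difference is ISO minus control, and the level of a probe is not set against that of another probe.

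Glucose enters the cardiomyocyte through the transporters GLUT1 (Slc2a1) and GLUT4 (Slc2a4), is phosphorylated by hexokinase, and is either stored as glycogen or split to pyruvate by glycolysis. Pyruvate becomes lactate, or is burned in the mitochondria after the pyruvate dehydrogenase (PDH) complex has turned it into acetyl-CoA. The PDH kinases (Pdk) switch this complex off. The adult heart draws most of its energy from fatty acids, and many of these enzymes have a muscle isoform and a second isoform that is more abundant in the fetal heart, the brain or non-muscle cells.

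Some arrays stood apart from the rest or did not match their labeled strain best. Connectivity, the summed closeness of an array to the others of its condition, was taken from distances between arrays and standardized. It was low for 5 arrays: the ISO arrays of AXB-19/PgnJ and NOD/LtJ and the control arrays of AXB-4/PgnJ, AXB-6/PgnJ and BXD69/RwwJ. Some of the lowest and highest values named below, such as those of Slc2a1, Phka1, Pdk4 and Pygm in these strains and conditions, come from these arrays. Each array was also compared with all arrays of the other condition over the 500 most variable probes. Of 196 arrays whose labeled strain had an array in the other condition, 121 correlated best with their own strain. On BeadChips (slides of 8 arrays) 12, 19, 23, 24 and 25, 0 of 7, 8, 3, 8 and 2 did so. BeadChips 12, 23 and 25 held no strain in both conditions, so their arrays could match only across BeadChips. On the other BeadChips a shared BeadChip and a shared strain cannot be told apart in this count. The share of probes detected ranged from 28.9% to 50.3% over the 208 arrays, and 44 of the 50 member probes were detected on at least 50% of the arrays of a condition. Those that were not belonged to Aldoc, Gbe1, Pfkfb3, Pfkp (1 probe) and Phka1 (2 probes).

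Of the 50 member probes, 7 (14%) rose and 6 (12%) fell in ISO hearts at an adjusted p-value under 0.05 and a log2 difference over 0.2 (a change of about 14.9%), while 3.72% of the 25697 probes of the array rose and 3.53% fell (7.25% in both directions). The probes that rose belonged to 7 members: Phka1, Eno2, Pfkp, Pdk3, Slc2a1, Hk1 and Pgam1. Those that fell belonged to 4 members: Fbp2, Ldhd, with 3 probes, Pfkfb2 and Pdk2. The other 24 members had no probe past both thresholds. A further 8 probes passed the adjusted p-value with a smaller difference, those of Gapdh (2 probes), Ldha, Eno3, Pdk1, Hk2 and Phka1 (2 further probes). The median log2 difference of the member probes was 0.07, against -0.002 for all probes. Without a minimum difference, 14 member probes rose and 7 fell, beside 6.7% and 8.44% of all probes. Only 11932 probes of the array were detected on at least 50% of the arrays of a condition. In a fit of these alone, 974 rose and 916 fell past both thresholds, larger shares than those over all probes. As 44 of the 50 member probes were detected, these shares are the closer background.

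The counts were repeated without the arrays in doubt. Without the 5 arrays of low connectivity 6 member probes rose and 6 fell, beside 3.63% and 2.96% of all probes, and Pgam1 was lost. Without the 5 BeadChips 12, 19, 23, 24 and 25, 10 member probes rose and 6 fell, while 4.26% and 4.52% of all probes did. Without BeadChip 6 as well, where 1 of 8 arrays matched its own strain best, 11 rose and 5 fell, beside 4.46% and 4.39% of all probes, with Gys1 (0.27 and 0.28), Pdk1 (0.22) and Pdk4 (0.38, adjusted p-value = 0.0276) gained and Pdk2 (-0.20) lost.

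**Figure D1:**
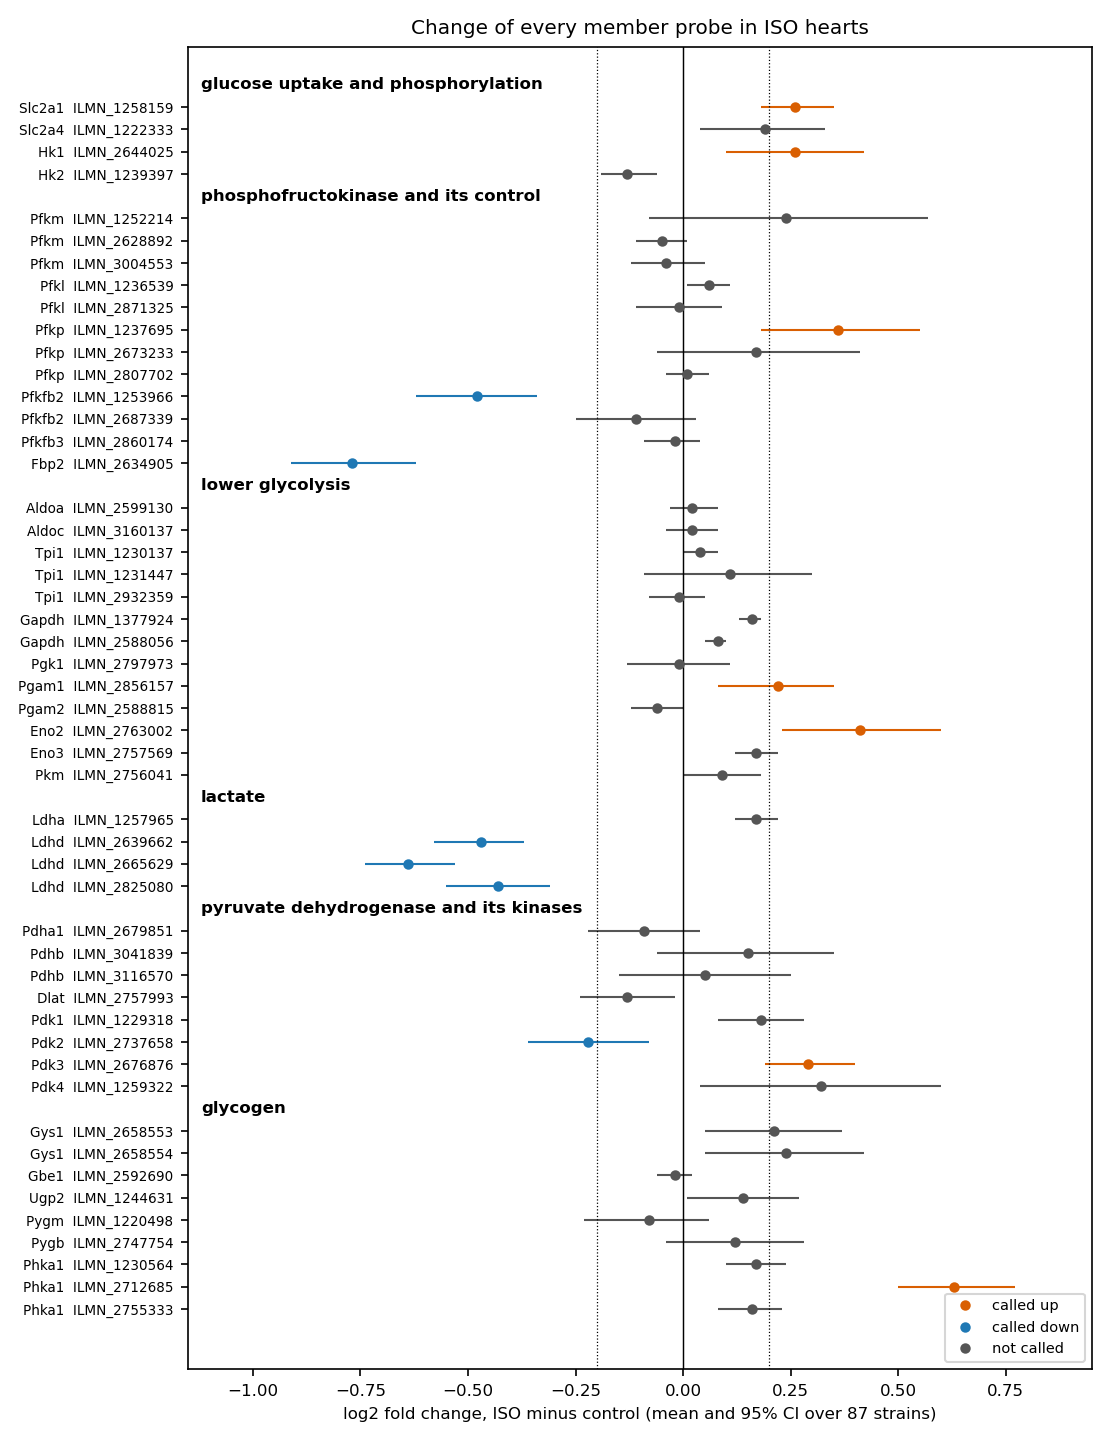
Log2 difference, ISO minus control, of each of the 50 member probes, grouped by role, with points for the mean over 87 strains and bars for its 95% confidence interval. Orange points are the 7 probes that rose, blue points the 6 that fell and gray points the 37 others, and dotted lines mark a difference of 0.2 in each direction.

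The proximal promoters of the members whose RNA moved are shown next, because the 4 members that fell share a short motif there. Promoter sequences of 300 bases, from 250 bases before to 50 after the annotated start, were read from RefSeq (mouse build GRCm38.p6) for 34 of the 35 measured members, all but Slc2a4, and they run in the direction of transcription. The letters CACGTG, the E-box recognized by the glucose-sensing factors of the ChREBP and Mondo family and by the Myc and USF factors, were searched on both strands. The motif was present in at least 1 promoter of 7 of the 34 members (Fbp2, Ldha, Ldhd, Pdk2, Pfkfb2, Pfkfb3 and Pfkm), and in 8.09% of all 27025 genes with a promoter. All 4 members that fell were among the 7, none of the 7 members that rose, and 3 of the 23 others. Of these 3, Ldha was higher in ISO hearts in 74 of 87 strains (log2 difference 0.17, adjusted p-value = 1.72e-07). It is among the others only because its difference was under the minimum, so the split by direction depends on that threshold. This motif was described after the calls were known and has no test. The letters ACGTG, given further below, and GGGCGG, the GC box, were searched as well. GGGCGG was present in 21 of the 34 members and in 38.2% of all genes. It occurred in 5 of the 7 members that rose, 1 of the 4 that fell and 15 of the 23 others. In the promoters below, CACGTG is in capitals.
Fbp2, chr13:62858351-62858650, minus strand: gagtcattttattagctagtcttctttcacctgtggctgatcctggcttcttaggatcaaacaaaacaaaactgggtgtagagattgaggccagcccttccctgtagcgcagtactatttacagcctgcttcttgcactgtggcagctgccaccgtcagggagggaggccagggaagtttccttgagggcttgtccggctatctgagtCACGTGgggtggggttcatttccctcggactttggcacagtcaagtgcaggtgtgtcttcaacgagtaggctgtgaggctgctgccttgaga
Ldhd, chr8:111630287-111630586, minus strand: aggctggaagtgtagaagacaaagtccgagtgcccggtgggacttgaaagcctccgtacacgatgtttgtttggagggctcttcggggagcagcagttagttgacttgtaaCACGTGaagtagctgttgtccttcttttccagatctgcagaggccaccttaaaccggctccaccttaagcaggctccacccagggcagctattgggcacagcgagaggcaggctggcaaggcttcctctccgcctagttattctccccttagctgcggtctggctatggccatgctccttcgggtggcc
Pdk2, chr11:95041322-95041621, minus strand: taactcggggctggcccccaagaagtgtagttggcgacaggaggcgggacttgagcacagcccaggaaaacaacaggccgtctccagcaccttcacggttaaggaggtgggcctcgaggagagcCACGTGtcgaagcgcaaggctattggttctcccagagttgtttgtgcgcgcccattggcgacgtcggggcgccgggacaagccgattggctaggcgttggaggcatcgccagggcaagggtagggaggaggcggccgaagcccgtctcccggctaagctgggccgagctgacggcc
Pfkfb2, chr1:130715772-130716071, minus strand: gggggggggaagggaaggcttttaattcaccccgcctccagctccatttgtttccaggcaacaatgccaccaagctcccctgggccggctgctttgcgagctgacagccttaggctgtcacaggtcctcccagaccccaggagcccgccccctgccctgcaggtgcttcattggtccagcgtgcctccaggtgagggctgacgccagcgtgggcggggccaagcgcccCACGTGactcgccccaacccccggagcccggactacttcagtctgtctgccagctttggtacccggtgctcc

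The first base of the motif lay at base -42 from the start site in Fbp2, -139 in Ldhd, -126 in Pdk2 and -22 in Pfkfb2. The shorter letters ACGTG, the core of the hypoxia response element and part of CACGTG, were present in 21 of the 34 members and in 21.8% of all genes. They occurred in 4 of the 7 members that rose (Hk1, Slc2a1, Pgam1 and Pdk3), in all 4 that fell and in 13 of the 23 others, a similar share in members that rose and in those not called. The promoters of Slc2a1 and of Hk1, the entry steps of the pathway, are shown with ACGTG in capitals.
Slc2a1, chr4:119108495-119108794, plus strand: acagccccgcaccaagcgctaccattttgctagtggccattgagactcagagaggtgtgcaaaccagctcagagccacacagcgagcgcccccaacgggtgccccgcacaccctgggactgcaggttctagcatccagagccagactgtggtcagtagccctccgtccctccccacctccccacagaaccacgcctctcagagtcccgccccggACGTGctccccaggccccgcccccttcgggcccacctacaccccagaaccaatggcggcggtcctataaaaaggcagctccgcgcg
Hk1, chr10:62340372-62340671, minus strand: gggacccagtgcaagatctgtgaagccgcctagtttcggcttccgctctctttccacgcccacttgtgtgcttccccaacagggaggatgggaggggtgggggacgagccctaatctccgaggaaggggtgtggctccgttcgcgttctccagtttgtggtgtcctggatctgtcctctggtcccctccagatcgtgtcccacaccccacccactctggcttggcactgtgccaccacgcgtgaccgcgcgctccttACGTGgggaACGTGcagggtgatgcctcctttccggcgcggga

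At the entry of the pathway, Slc2a1, which encodes the glucose transporter of basal uptake, increased by 20.0% in ISO hearts. Its level ranged from 8.21 to 10.17 in ISO hearts (median 9.20), with the lowest value in BXD79/RwwJ and the highest in AXB-20/PgnJ. In control hearts it ranged from 7.52 in AXB-4/PgnJ to 9.69 in AXB-20/PgnJ (median 8.95). Single strains overlapped widely between the conditions, and the same strain, AXB-20/PgnJ, was the highest in both. Within strains, Slc2a1 was higher in the ISO heart of 69 of 87 strains, with a log2 difference of 0.26 ± 0.04 (SE, adjusted p-value = 4.41e-07). Slc2a4, the transporter that insulin and contraction bring to the cell surface, averaged 11.27 ± 0.35 in ISO hearts and 11.09 ± 0.59 in control hearts (SD, n = 87 strains each), and its difference of 0.19 did not pass the test (adjusted p-value = 0.0633).

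The hexokinases, which trap glucose in the cell, had differences of opposite sign. Hk1, the isoform of brain and red cells, ranged from 5.11 to 8.94 in ISO hearts (median 7.61) and from 4.98 to 8.22 in control hearts (median 7.45). It was higher in 54 of 87 ISO hearts, and the mean increased by 19.5% (log2 difference 0.26 ± 0.08, SE, adjusted p-value = 0.0147). The lowest ISO value was that of AXB-19/PgnJ and the lowest control value that of AXB-4/PgnJ, both from arrays that stood apart from the others, and the Hk1 difference was also 0.26 (adjusted p-value = 0.00284) without such arrays. Hk2, the isoform of insulin-sensitive muscle, ranged from 11.65 to 13.88 in ISO hearts (median 13.47) and from 13.03 to 13.95 in control hearts (median 13.53). It was lower in 59 of 87 ISO hearts, by 8.51% on average (log2 difference -0.13 ± 0.03, SE, adjusted p-value = 0.00277), which is under the minimum difference. SJL/J had the lowest Hk2 level in ISO hearts, and the next strain in that order, chosen after its value was seen, was AXB-8/PgnJ at 12.68.

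At the phosphofructokinase step, the committed step of glycolysis, Fbp2 and a probe of Pfkfb2 fell and a probe of Pfkp rose. Fbp2, the muscle fructose bisphosphatase, which runs this step backward, had the largest decrease of the members, 41.2%. Its level ranged from 6.26 in AKR/J to 10.04 in SEA/GnJ in ISO hearts (median 8.69), against 7.19 in CBA/J to 10.87 in BXD66/RwwJ in control hearts (median 9.31). Although the ranges overlapped, Fbp2 was lower in the ISO heart of 78 of 87 strains (log2 difference -0.77 ± 0.07, SE, adjusted p-value = 3.14e-14). Pfkfb2, the heart form of the bifunctional enzyme that makes and removes the main activator of phosphofructokinase, decreased by 28.5% at one probe (ILMN_1253966). This probe ranged from 6.72 to 11.05 in ISO hearts (median 10.01) and from 9.43 to 12.13 in control hearts (median 10.40), and was lower in 70 of 87 ISO hearts (log2 difference -0.48 ± 0.07, SE, adjusted p-value = 5.04e-08). The second Pfkfb2 probe was at 6.10 in ISO hearts and 6.21 in control hearts (adjusted p-value = 0.358). SJL/J again had the lowest level in ISO hearts for Pfkfb2. Pfkfb3, the inducible form of the same enzyme, was detected on under 50% of the arrays of each condition and averaged 4.94 in ISO hearts and 4.97 in control hearts.

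Of the phosphofructokinase subunits, only Pfkp, the platelet form, had a probe past both thresholds in the fit over all strains. Its brightest probe (ILMN_1237695) ranged from 7.68 to 11.56 in ISO hearts (median 9.46) and from 6.35 to 11.26 in control hearts (median 9.24), was higher in 60 of 87 ISO hearts and increased by 28.7% (log2 difference 0.36 ± 0.09, SE, adjusted p-value = 2.46e-03). The other Pfkp probes had differences of 0.17 (adjusted p-value = 0.396) and 0.01 (adjusted p-value = 0.892), and the last was detected on under 50% of the arrays, so the probes of Pfkp disagree. The muscle subunit Pfkm had differences of -0.05, -0.04 and 0.24 at its 3 probes, and none passed the test. The liver subunit Pfkl averaged 11.90 ± 0.25 in ISO hearts and 11.84 ± 0.26 in control hearts at its brighter probe (SD, n = 87 strains each, adjusted p-value = 0.0883).

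**Figure D2:**
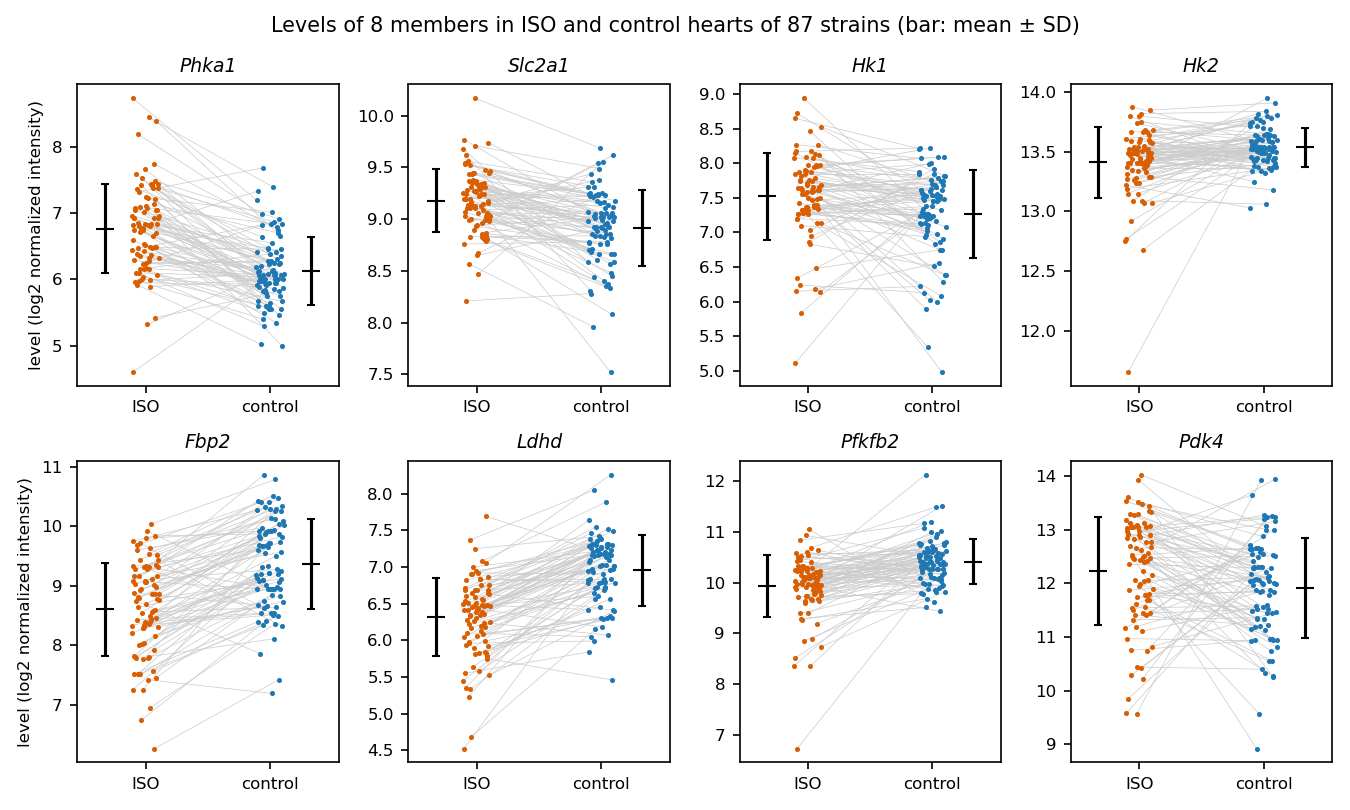
Level (log2 normalized intensity) of 8 members in ISO hearts (orange, left) and control hearts (blue, right), with a point for each of 87 strains, a gray line joining the conditions of a strain, and black bars for the mean ± SD. For Ldhd the probe ILMN_2665629 is shown, and for Phka1 and Pfkfb2 the probe that passed both thresholds. Most lines fall toward ISO in Fbp2, Ldhd and Pfkfb2 and rise toward ISO in Phka1, while those of Pdk4 run both ways.

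Lower glycolysis, from aldolase to pyruvate kinase, held small differences in the muscle isoforms and larger ones in Eno2 and Pgam1. Eno2, the enolase of neurons, ranged from 5.27 in CXB-7/ByJ to 8.76 in CXB-11/HiAJ in ISO hearts (median 6.72) and from 4.86 in KK/HlJ to 8.72 in BXH-6/TyJ in control hearts (median 6.35). It was higher in 65 of 87 ISO hearts and increased by 33.2% (log2 difference 0.41 ± 0.09, SE, adjusted p-value = 4.78e-04), with ranges that overlapped almost fully. Eno3, the enolase of muscle, averaged 14.41 ± 0.24 in ISO hearts and 14.24 ± 0.26 in control hearts (SD, n = 87 strains each). Its difference of 0.17 was under the minimum, with 73 of 87 strains higher in ISO hearts (adjusted p-value = 7.91e-08).

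Pgam1, the phosphoglycerate mutase of brain and most tissues, ranged from 7.38 to 9.33 in ISO hearts (median 8.62) and from 5.82 to 9.68 in control hearts (median 8.39). It increased by 16.2% (log2 difference 0.22 ± 0.07, SE, adjusted p-value = 0.0148, higher in 55 of 87 strains), near the minimum difference, and it was at 0.20 without the arrays that stood apart. Pgam2, the muscle form, averaged 13.51 ± 0.36 in ISO hearts and 13.57 ± 0.36 in control hearts (SD, n = 87 strains each, adjusted p-value = 0.153). Gapdh, often used as a reference gene, was higher in ISO hearts at both probes, with differences of 0.16 (79 of 87 strains, adjusted p-value = 4.06e-16) and 0.08 (68 of 87 strains, adjusted p-value = 1.64e-06). Both are under the minimum difference. The probes of Aldoa, Aldoc, Tpi1, Pgk1 and Pkm did not pass the test, with differences between -0.01 and 0.11.

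Among the enzymes of lactate, Ldhd was the one that moved past both thresholds. Ldhd encodes the mitochondrial dehydrogenase of D-lactate, the minor mirror form of lactate, and all 3 of its probes fell. Probe ILMN_2665629 ranged from 4.52 to 7.69 in ISO hearts (median 6.41) and from 5.46 to 8.26 in control hearts (median 7.03), and was lower in 77 of 87 ISO hearts (log2 difference -0.64 ± 0.05, SE, adjusted p-value = 1.27e-17). Probe ILMN_2639662 fell by 27.9% (lower in 74 of 87 strains, adjusted p-value = 1.14e-11), and probe ILMN_2825080 fell by 25.9% (lower in 70 of 87 strains, adjusted p-value = 1.49e-08). Ldha, the muscle chain of the L-lactate dehydrogenase, ranged from 12.48 to 14.20 in ISO hearts (median 13.70) and from 12.75 to 13.83 in control hearts (median 13.52). Ldha was higher in 74 of 87 ISO hearts, by 12.7%, under the minimum difference (log2 difference 0.17 ± 0.03, SE, adjusted p-value = 1.72e-07).

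The subunits of the PDH complex did not pass the test, with 13.47 ± 0.53 in ISO hearts and 13.57 ± 0.43 in control hearts for Pdha1 (SD, n = 87 strains each, adjusted p-value = 0.405) and 10.62 ± 0.36 in ISO hearts and 10.76 ± 0.35 in control hearts for Dlat (SD, n = 87 strains each, adjusted p-value = 0.097). Both Pdhb probes had adjusted p-values over 0.4, and they also varied widely between control strains. The kinases of the complex differed among themselves. Pdk3, a kinase of low abundance in heart, ranged from 4.58 in CBA/J to 7.02 in AXB-20/PgnJ in ISO hearts (median 5.70) and from 4.53 in BXHB2 to 6.20 in BXA-8/PgnJ in control hearts (median 5.42). It increased by 22.7% and was higher in 67 of 87 ISO hearts (log2 difference 0.29 ± 0.05, SE, adjusted p-value = 1.77e-05), with detection on 80.4% of ISO arrays and 71.7% of control arrays.

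Pdk2, a constitutive heart kinase, ranged from 5.73 to 10.77 in ISO hearts (median 9.68) and from 7.07 to 10.31 in control hearts (median 9.89). It decreased by 14.1% (log2 difference -0.22 ± 0.07, SE, adjusted p-value = 0.0231, lower in 63 of 87 strains), and the lowest values, AXB-19/PgnJ among ISO hearts and AXB-6/PgnJ among control hearts, came from arrays that stood apart. Pdk1, which hypoxia induces, averaged 9.15 ± 0.46 in ISO hearts and 8.97 ± 0.56 in control hearts (SD, n = 87 strains each), a difference of 0.18 (adjusted p-value = 7.56e-03) under the minimum. Pdk4, the kinase induced by fasting and fatty acids, had the widest scatter of the kinases. Its level ranged from 9.57 in CXB-7/ByJ to 14.02 in CBA/J in ISO hearts (median 12.47) and from 8.92 in AXB-6/PgnJ to 13.94 in BXA-8/PgnJ in control hearts (median 12.01). The difference of 0.32 ± 0.14 (SE) did not pass the test over all strains (adjusted p-value = 0.117, higher in 54 of 87 ISO hearts).

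The sign of the Pdk4 difference was not the same in all sets of arrays. The 26 BeadChips fall by their slide numbers into 3 sets of 6, 14 and 6 BeadChips, with 24, 52 and 16 strains that had both conditions. Pdk4 was at -0.67 in the first set (adjusted p-value = 0.222), 0.54 in the second (adjusted p-value = 0.00257) and 1.0 in the third (adjusted p-value = 0.26). Pdk2 was at -0.36, -0.33 and 0.32, and Eno2 at 0.47, 0.47 and -0.01 in sets 1, 2 and 3. By contrast, Phka1 (0.38, 0.75 and 0.70), Fbp2 (-0.77, -0.89 and -0.47), Pfkfb2 (-0.83, -0.34 and -0.44) and Slc2a1 (0.45, 0.23 and 0.17) had the same sign in each set. Few strains had both conditions in more than 1 set, so the sets differ in most of their strains, and differences between the sets were not tested.

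In glycogen metabolism Phka1 was the member that moved past both thresholds. Phka1, the muscle regulatory subunit of phosphorylase kinase, which turns on glycogen phosphorylase in response to adrenergic signaling and calcium, had the largest increase of the members. Its brightest probe (ILMN_2712685) ranged from 4.60 in AXB-19/PgnJ to 8.73 in BXD48/RwwJ in ISO hearts (median 6.80) and from 4.99 in BXHB2 to 7.68 in AXB-6/PgnJ in control hearts (median 6.06). Phka1 increased by 55.2% and was higher in 75 of 87 ISO hearts (log2 difference 0.63 ± 0.07, SE, adjusted p-value = 6.57e-13). The other Phka1 probes, detected on under 50% of the arrays, had differences of 0.17 (adjusted p-value = 0.000141) and 0.16 (adjusted p-value = 0.00162) in the same direction.

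The glycogen synthase Gys1 had differences of 0.21 (adjusted p-value = 0.0591) and 0.24 (adjusted p-value = 0.0655) at its probes. Ugp2, which makes the UDP-glucose that synthase uses, averaged 11.02 ± 0.66 in ISO hearts and 10.88 ± 0.33 in control hearts (SD, n = 87 strains each, adjusted p-value = 0.163). The muscle phosphorylase Pygm averaged 10.52 ± 0.65 in ISO hearts and 10.60 ± 0.28 in control hearts (SD, n = 87 strains each, adjusted p-value = 0.525). A single ISO heart, that of AXB-19/PgnJ at 5.35, lay far below the next strain, AXB-20/PgnJ at 9.48, named after its value was seen. The branching enzyme Gbe1 was detected on none of the arrays.

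Isoform shifts were tested as the difference between the responses of the members of a pair within each strain, with a two-sided sign-flip permutation test over the 87 strains (smallest p-value 1e-05) and Benjamini-Hochberg adjustment over the 9 pairs that could be measured of 11. Hk1 rose relative to Hk2 by 0.386 log2 units (95% confidence interval 0.21 to 0.56, adjusted permutation p-value = 9e-05), in 63 of 87 strains. Pgam1 rose relative to Pgam2 by 0.279 (0.12 to 0.43, adjusted permutation p-value = 0.00078), in 60 of 87 strains. In both pairs the member that rose is the form of brain and other non-muscle tissues and the other is the muscle form. Their sign was the same in each set of BeadChips, which also held for Pfkp minus Pfkm and Pygb minus Pygm. The hexokinase shift passed the test in the first set (0.691, adjusted permutation p-value = 0.0452) and the second (0.242, adjusted permutation p-value = 0.00027) and not in the third (0.591, adjusted permutation p-value = 0.141). The mutase shift passed only in the second set (0.190, adjusted permutation p-value = 0.00762), against 0.215 in the first (adjusted permutation p-value = 0.299) and 0.751 in the third (adjusted permutation p-value = 0.0862).

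Pfkp rose relative to Pfkm by 0.416 (0.23 to 0.60, adjusted permutation p-value = 9e-05, 58 of 87 strains) with the brightest probe of each gene, and by 0.131 (adjusted permutation p-value = 0.0529) with the mean of all their probes. Pfkl rose relative to Pfkm by 0.112 (0.03 to 0.19, adjusted permutation p-value = 0.00846, 55 of 87 strains) with the brightest probe, and the shift was -0.026 with the mean of all probes and -0.193 in the third set of BeadChips (adjusted permutation p-value = 0.174). Pdk2 fell relative to Pdk4, with a shift of -0.537 (-0.83 to -0.25, adjusted permutation p-value = 0.000945) that was negative in 63 of 87 strains. This shift was 0.306 in the first set of BeadChips, -0.869 in the second and -0.681 in the third.

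For 3 pairs no unequal change was detected over all strains. The interval was -0.06 to 0.21 for Slc2a1 against Slc2a4 (adjusted permutation p-value = 0.31), -0.09 to 0.08 for Aldoc against Aldoa (0.946), and -0.39 to 0.11 for Pdk1 against Pdk4 (0.31). The last was 0.888 in the first set (adjusted permutation p-value = 0.00544) and -0.435 in the second (adjusted permutation p-value = 0.00339). Slc2a1 minus Slc2a4 passed in the second set (0.226, adjusted permutation p-value = 0.000405) and was -0.620 in the third (adjusted permutation p-value = 0.0837), and Aldoc minus Aldoa passed in the second set (-0.075, adjusted permutation p-value = 0.014). Aldoc was detected on only 2.94% of ISO arrays and 1.89% of control arrays, so the values of its pair cannot show whether the isoforms shifted. Pygb, the brain phosphorylase, rose relative to Pygm by 0.204 (0.01 to 0.39, adjusted permutation p-value = 0.0441), in 52 of 87 strains. Without the arrays that stood apart this shift was 0.130 and did not pass the test (adjusted permutation p-value = 0.16), and without BeadChips 6, 12, 19, 23, 24 and 25 it was 0.092 (adjusted permutation p-value = 0.0283).

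**Figure D3:**
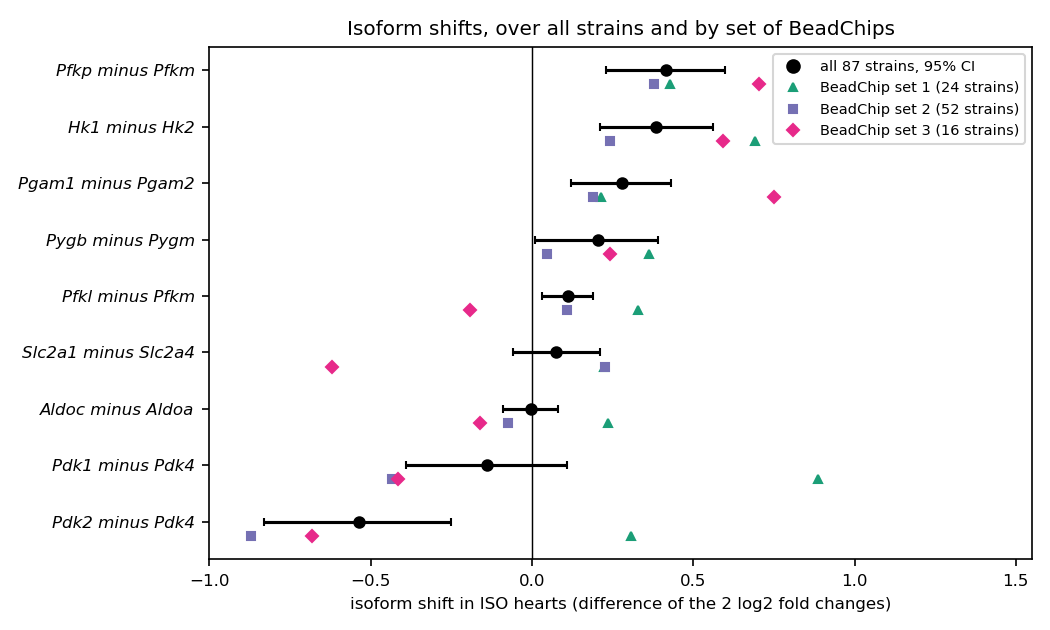
Isoform shift in ISO hearts, the log2 difference of the first gene less that of the second, for 9 pairs, with black points and bars for the mean over 87 strains and its 95% confidence interval and colored markers for each set of BeadChips. Strains with arrays in more than 1 set count in each. The markers of Hk1 minus Hk2, Pfkp minus Pfkm, Pgam1 minus Pgam2 and Pygb minus Pygm lie right of 0 in all sets. Those of every other pair lie on both sides of 0.

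The members varied among strains in both conditions. The largest SD over the 87 control strains was that of a dimmer Pfkm probe (ILMN_1252214, 1.09 in ISO hearts and 1.46 in control hearts), followed by a Pfkp probe (ILMN_2673233, SD 1.07 in ISO hearts and 1.16 in control hearts), Pygb (0.96 in ISO hearts and 1.05 in control hearts) and a Pdhb probe (ILMN_3116570, 0.93 in ISO hearts and 1.03 in control hearts). That Pfkm probe ranged from 6.56 to 11.38 in ISO hearts (median 10.23) and from 4.74 to 11.04 in control hearts (median 10.30). The Pfkp probe ranged from 4.55 to 9.74 in ISO hearts and from 4.51 to 9.70 in control hearts, and the Pdhb probe from 5.97 to 11.26 in ISO hearts and from 4.96 to 10.41 in control hearts. The probes of highest mean level of Pfkm, Pfkp and Pdhb varied less than the probes named here, and the SD of Pfkm probe ILMN_2628892 was 0.29 in ISO hearts and 0.18 in control hearts.

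Pygb was bimodal, with most strains near 12.3 and a few far lower (the strains were chosen after their values were seen). Low levels in both conditions were measured in NZB/BlNJ (8.07 in ISO and 8.30 in control hearts), NON/LtJ (8.20 in ISO and 8.12 in control hearts), BXD75/RwwJ (9.14 in ISO and 9.30 in control hearts), 129X1/SvJ (9.17 in ISO and 9.21 in control hearts), LP/J (9.80 in ISO and 9.85 in control hearts) and AKR/J (10.02 in ISO and 10.40 in control hearts). In 4 strains only one condition was under 10: BXH-9/TyJ had 12.76 in ISO and 8.54 in control hearts, AXB-18/PgnJ 12.57 in ISO and 9.25 in control hearts, CXB-6/ByJ 12.09 in ISO and 9.86 in control hearts, and CXB-7/ByJ 9.95 in ISO and 11.89 in control hearts. All arrays of these 4 strains lay on BeadChips 6, 12, 19 and 24. On these, 1, 0, 0 and 0 arrays matched best an array of their own labeled strain in the other condition. BeadChip 12 held control arrays only. Probe ILMN_1377924 of Gapdh was low only in BXD75/RwwJ, at 6.41 in its ISO heart and 6.34 in its control heart, against 13.79 or more in all other strains. The second Gapdh probe was at 14.29 in the ISO heart and 14.22 in the control heart of BXD75/RwwJ. Probes that overlap sequence variants were kept here, and whether a variant lies under these probes was not tested.

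**Figure D4:**
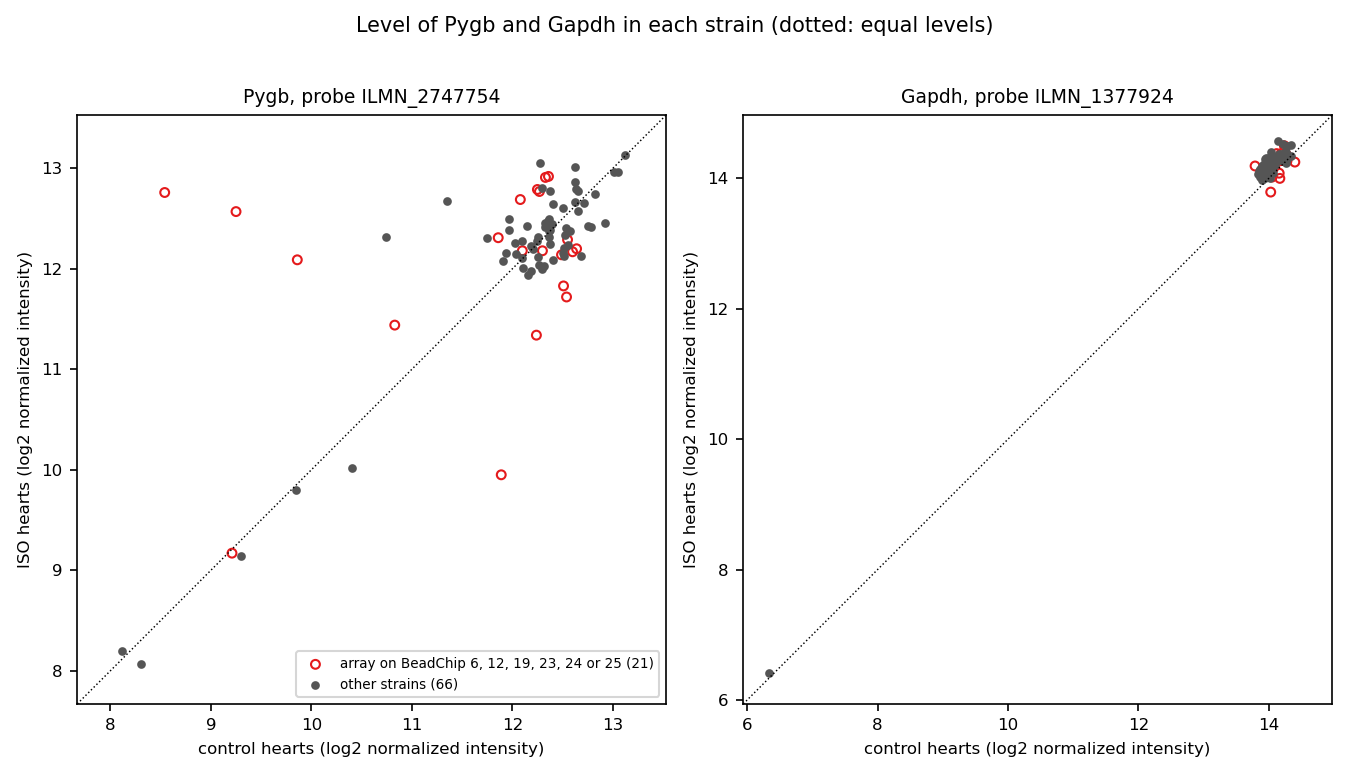
Level (log2 normalized intensity) in ISO hearts (vertical axis) against control hearts (horizontal axis) of Pygb, left, and of Gapdh probe ILMN_1377924, right, with a point for each of 87 strains. Open red points are the 21 strains with an array on BeadChip 6, 12, 19, 23, 24 or 25. Strains with low Pygb in both conditions lie along the dotted line of equal levels, and the 4 strains far off it are all open points.

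Over the 50 member probes, the level in ISO hearts was compared with that in control hearts across strains. Pearson's r had a median of 0.36, and 33 of 50 passed an adjusted permutation p-value of 0.05. The share over all probes was not computed, so this count does not set the members apart from the array. Every strain had both conditions on the same BeadChip, and after centering on each BeadChip and condition the median r was 0.12. Fbp2 had r = 0.60 (Spearman's rho 0.57, permutation p-values of 1e-05, the smallest possible, adjusted 2.63e-05), 0.54 without the 2 strains farthest from the median and 0.50 after centering. Pkm had r = 0.59 (rho 0.56, permutation p-values of 1e-05, adjusted 2.63e-05), 0.57 without the 2 farthest strains and 0.50 after centering. Aldoa had r = 0.75 (rho 0.79, permutation p-values of 1e-05, adjusted 2.63e-05) and 0.74 without the 2 farthest strains, but -0.02 after centering. Thus the order of strains in Fbp2 and Pkm was similar in both conditions within BeadChips, and that in Aldoa was not. For Pygb and Gapdh probe ILMN_1377924 no r is given, since their strains fall into separate clusters. RI strains share parental alleles, so strains are not fully independent.

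The response of the members was compared between strain families (27 classical, 16 AXB/BXA, 22 BXD/RwwJ, 11 BXD/TyJ, 4 BXH and 7 CXB strains). By limma's F test, 0 of the 50 member probes and 0% of all 25697 probes passed an adjusted p-value of 0.05, and 5 member probes had an unadjusted p-value under 0.05. The smallest was that of Ldhd probe ILMN_2825080 (p-value = 0.0158, adjusted 0.445), whose mean difference was -0.62 in BXD/RwwJ strains, -0.61 in classical strains, -0.18 in AXB/BXA strains and 0.08 in BXH strains. The Fbp2 difference ranged from -1.20 ± 0.88 (SD, n = 7 CXB strains) to -0.08 ± 1.10 (SD, n = 4 BXH strains), which overlap.

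Markers of some other cell types moved with ISO, and each count is to be read beside the 3.72% of all probes that rose and the 3.53% that fell. Among the 11932 detected probes the shares were larger, as 974 rose and 916 fell. Of 12 fibroblast markers 7 rose (Col1a1, Col1a2, Col3a1, Lum, Tcf21, Fbln2 and Mfap5), and the summed level of the list ranged from 13.53 to 15.37 on the log2 scale in ISO hearts (median 14.37) and from 13.63 to 14.95 in control hearts (median 14.14). Of 13 macrophage markers 8 rose, with a summed level of 11.78 to 14.79 in ISO hearts (median 13) and 10.82 to 14.11 in control hearts (median 12.56). None of the 10 cardiomyocyte markers passed both thresholds, all were detected, and their summed level was 17.08 to 17.73 in ISO hearts (median 17.62) and 17.37 to 17.76 in control hearts (median 17.64). Of 11 skeletal muscle markers 4 fell (Mylpf, Tnnc2, Atp2a1 and Mybpc2). On under 50% of the arrays 5 of the list were detected, among them Myh1, Myh4 and also Tnnc2. Of 8 smooth muscle and pericyte markers 2 rose, of 3 erythroid markers 1 rose, and of 9 endothelial markers 1 fell. None of the 8 fat markers, of which 1 was detected, and none of the 5 atrial markers, of which 3 were detected, passed both thresholds. In this bulk tissue, fewer cells of a type and less RNA per cell cannot be told apart.

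Of 315 pairs of a member and a marker list, 76 passed an adjusted permutation p-value of 0.05 for the correlation of their responses over the 87 strains. The share over all probes was not computed for these lists, so the count does not set the members apart from the array. The response of Ldhd had r = -0.58 (rho -0.57) with the fibroblast list and -0.54 without the 2 farthest strains, and within sets 1, 2 and 3 of the BeadChips it was -0.41, -0.64 and -0.56. Fbp2 had r = -0.53 (rho -0.47), -0.47 without the 2 farthest strains, and -0.38, -0.64 and -0.43 in the sets. Eno2 had r = 0.55 (rho 0.59), 0.51 without the 2 farthest strains, and 0.45, 0.73 and 0.48 in the sets. Pdk3 had r = 0.48 (rho 0.48), 0.47 without the 2 farthest strains, and 0.24, 0.54 and 0.37 in the sets. For these 4 members each permutation p-value was 1e-05, the smallest possible, and the adjusted value for r was 0.000185. Phka1 (r = 0.07), Slc2a1 (r = 0.06), Hk1 (r = -0.06) and Pfkfb2 (r = -0.04) did not pass the test with the fibroblast list, with adjusted permutation p-values of 0.672, 0.728, 0.748 and 0.83. With the cardiomyocyte list, Hk1 had r = 0.45 (rho 0.32, adjusted permutation p-value for r = 0.000472), 0.36 without the 2 farthest strains, 0.25 without the arrays of low connectivity, and 0.62, 0.23 and 0.45 in the sets. Eno2 had r = -0.42 (rho -0.51, adjusted permutation p-value for r = 0.00075) with that list, -0.50 without the 2 farthest strains, and -0.17, -0.66 and -0.76 in the sets. The part of fibroblasts in the changes of Ldhd, Fbp2, Eno2 and Pdk3 was not tested.

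Of 98 further genes of these and connected pathways, 84 had a probe, and 4 rose and 4 fell past both thresholds. These shares are near the 3.72% and 3.53% of all probes, so the counts do not set the list apart from the array. Phkg1, the muscle catalytic subunit of phosphorylase kinase, rose as Phka1 did. It ranged from 5.95 to 10.05 in ISO hearts (median 9.21) and from 4.93 to 9.87 in control hearts (median 8.27), was higher in 77 of 87 ISO hearts and increased by 94.7% (log2 difference 0.96 ± 0.10, SE, adjusted p-value = 3.14e-13). Stbd1, which tethers glycogen to membranes, averaged 9.17 ± 1.30 in ISO hearts and 8.50 ± 1.15 in control hearts (SD, n = 87 strains each) and increased by 58.8% (adjusted p-value = 5.08e-08). The other genes that rose were Gfpt2, a first enzyme of the hexosamine branch (0.35, adjusted p-value = 7.41e-05), and the mitochondrial malic enzyme Me2 (0.22, adjusted p-value = 4.78e-04).

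Mlxipl, which encodes ChREBP, a glucose-responsive factor that binds E-boxes, ranged from 6.88 to 10.18 in ISO hearts (median 9.21) and from 8.33 to 11.88 in control hearts (median 9.45). It was lower in 69 of 87 ISO hearts and decreased by 28.6% (log2 difference -0.49 ± 0.07, SE, adjusted p-value = 1.74e-08). Pdp2, a phosphatase that switches the PDH complex back on, averaged 10.42 ± 0.55 in ISO hearts and 10.91 ± 0.56 in control hearts (SD, n = 87 strains each) and decreased by 28.8% (adjusted p-value = 2.45e-08). Ogt, which adds the sugar made by the hexosamine branch to proteins, fell by 17.3% (adjusted p-value = 1.61e-04), and Gpd2, the mitochondrial glycerol phosphate dehydrogenase, fell by 13.3% (adjusted p-value = 6.43e-04). The hexokinase and entry group had 0 of 9 genes past both thresholds.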

How the data were processed

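RNA of LV tissue was hybridized to 208 Illumina MouseRef-8 v2.0 arrays read in 1 color, 102 of ISO and 106 of control hearts. The deposited intensity values per probe were exported by the authors with GenomeStudio 2010.3 before background correction or normalization. The deposited detection p-value of each probe and array was computed by the authors from the negative controls. The authors used neqc of limma to make the deposited log2 values (background correction from controls, quantile normalization, log2), which were used here as an alternative. Probes under SNPs, which the authors excluded, were kept here.

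The intensities of 25697 gene probes were normalized with neqc (limma 3.58.1, R 4.3.3, offset 16). The medians of the deposited columns lay between 4.99 and 5.01, and all 208 columns correlated best with the same array normalized here. Array number limits the precision, and median raw intensities ranged from 97.9 to 179.4. Repeat arrays of a strain and condition (9 ISO and 13 control strains, at most 2 each) were averaged, and paired by strain in limma with Benjamini-Hochberg adjustment over all probes. Calls needed an adjusted p-value under 0.05 and a log2 difference over 0.2. Detection was at a p-value under 0.05, and low connectivity was a standardized connectivity under -2.5. Isoform shifts and correlations used 100000 permutations. The script was tested on simulated data.

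Conditions were paired by the labeled inbred strain. Deviations of the 2 conditions of a strain correlated with a median r of 0.474, over 0.1 in 78 of 87 strains, against -0.0154 between different strains. Single arrays of the same strain had a median r of 0.523 on the same BeadChip and -0.0854 on different BeadChips (22 pairs), while different strains had 0.282 on the same BeadChip, so BeadChip and strain share this pairing. Most of the 22 pairs include an array on BeadChip 12, 19, 23 or 25, which are in doubt, and similarity of a strain across BeadChips was not seen. BeadChips 12, 23 and 25 held no strain in both conditions, so their arrays could be matched only across BeadChips. The doubt about them rests on this same comparison and cannot be used to set these pairs aside.

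The members and lists were chosen with earlier results of these data known. Values over strains are named for members past both thresholds, both genes of each isoform pair, and the 4 members with the largest SD over control strains. Single strains are named where they were the lowest or highest of a named member or had an outlying value in a family.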

Additional observations from a re-analysis of the deposited data

Results flagged for a closer look

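Within the CXB family (7 strains) and the BXH family (4 strains), the single strain farthest from the others was compared with the range of its family for 20 values, 40 comparisons in all. In 3 of them a strain lay beyond Dixon's limit, a rate that chance gives in about 1 of 20 such groups, and all 3 were the strain CXBH. The difference of Hk1, ISO minus control, was 1.05 in CXBH and -0.33 to 0.20 in the other CXB strains. The difference of Phka1 was 1.75 in CXBH and -0.05 to 0.72 in the others. The isoform shift Hk1 minus Hk2 was 1.10 in CXBH and -0.47 to 0.17 in the others, and shares its Hk1 values with the first. Each condition of CXBH rests on 1 array, so the values have no repeat.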

How the results depend on the processing

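The counts of member probes that rose and fell were 7 and 6. Without the pairing by strain (no replicate block) they were 5 and 5 over the same strains, Hk1, Pgam1 and Pdk2 being lost. The count that rose moved to 3 without background correction (1.77% of all probes rose), 1 in the first set of BeadChips (1.07%), 0 in the third, 11 without the doubted BeadChips and BeadChip 6 (4.46%, an alternative chosen after seeing the data), and 14 with no minimum difference (6.7%). The count that fell moved to 2 in the first set (1.07% of all probes fell) and 0 in the third. The third set held 16 strains, and in it 0.0156% of all probes rose and 0.00778% fell. Under the other alternatives 5 to 10 probes rose and 5 to 7 fell.

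Of 208 values of called probes under the alternatives, 168 kept direction and call, 38 kept direction but lost the call, and 2 changed sign, Eno2 (-0.01) and Pdk2 (0.32), both in the third set. Of 152 isoform shifts, 117 kept both, 21 lost the call, 4 gained it and 10 changed sign. In the first set the shifts were 0.428 for Pfkp minus Pfkm, 0.235 for Aldoc minus Aldoa, 0.215 for Pgam1 minus Pgam2, 0.363 for Pygb minus Pygm, 0.888 for Pdk1 minus Pdk4 and 0.306 for Pdk2 minus Pdk4. In the second set they were 0.226 for Slc2a1 minus Slc2a4, -0.075 for Aldoc minus Aldoa, 0.046 for Pygb minus Pygm and -0.435 for Pdk1 minus Pdk4. In the third set they were -0.620 for Slc2a1 minus Slc2a4, 0.591 for Hk1 minus Hk2, 0.703 for Pfkp minus Pfkm, -0.193 for Pfkl minus Pfkm, 0.751 for Pgam1 minus Pgam2, 0.242 for Pygb minus Pygm and -0.681 for Pdk2 minus Pdk4. With the mean of all probes of a gene they were 0.131 for Pfkp minus Pfkm, -0.026 for Pfkl minus Pfkm and 0.204 for Pygb minus Pygm. Without the pairing (no replicate block) they were 0.112 for Pfkl minus Pfkm and 0.204 for Pygb minus Pygm, and over all strains unpaired 0.099 and 0.185. Pygb minus Pygm was also 0.173 with median scaling, 0.163 with BeadChip as a block, 0.176 with pairs on the same BeadChip, 0.130 without low-connectivity arrays, 0.181 with the first array only and 0.079 without doubted BeadChips and low-connectivity arrays (also chosen after seeing the data), the setting in which Slc2a1 minus Slc2a4 was 0.127. Aldoc minus Aldoa was 0.002 with deposited values, 0.015 with median scaling, 0.016 without doubted BeadChips and -0.000 with the first array only.

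The median r of ISO against control levels was 0.48 without low-connectivity arrays and 0.12 after centering on BeadChips. The median absolute r with marker lists was 0.29 in the third set, against 0.15 over all strains. The count of member probes that differed between families was 0 under every alternative run. The cause of these changes was not tested.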
